A study of Lotus japonicus with 10 samples.

Results

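The comparison described here sets detached mature leaves of Lotus japonicus that had spent 6 h in glutathione (GSH) against leaves that were not elicited. It holds 7 of the 10 samples of a time course, 3 at 6 h and 4 unelicited, which the study describes as biological replicates. All plants were of the MG20 accession and grew in a glasshouse. Leaves of the 6 h group were cut off and lay in a 10 mM GSH solution at 28 °C on a shaker set to 200 rpm. The labels describe no leaves that were cut, submerged and shaken without GSH, so effects of GSH cannot be told apart from those of detachment, submersion, shaking, 28 °C or the elapsed time. Each sample was total RNA, labelled with Cy3 and hybridised alone to 1 Agilent array of 5716 non-control probes. The array is a focused one: its 3148 names cover transcription factors, phenylpropanoid and flavonoid enzymes, cytochrome P450s (CYP), UDP-glycosyltransferases (UGT) and beta-glucosidases. Names that end in the same gene model, or that differ only by the ending _est, were joined into 2563 targets, of which 1584 were bright enough to test.

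Glutathione is a small thiol that, supplied from outside, acts as an elicitor of defence in plants. Legumes answer elicitors by making isoflavonoid phytoalexins, antimicrobial compounds built from phenylalanine through the phenylpropanoid pathway, chalcones and isoflavones. In Lotus the end product of that route is vestitol. Lotus leaves also hold preformed defences, the cyanogenic glucosides linamarin and lotaustralin, from which beta-glucosidases and the decay of the resulting cyanohydrins release hydrogen cyanide.

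Levels are given as log2 signal minus the array's own 75th percentile, so a value of 0 is the 75th percentile of that array, and a log2 difference of 1 is a 2-fold ratio. Levels of one probe are compared only with the same probe on other arrays. A target was called when limma's adjusted p was under 0.05. The unelicited replicates 1 and 2 lay on another slide (slide 1) than all other arrays (slide 2). Over the tested probes, the correlation of unelicited arrays was 0.973 and 0.978 on the same slide, against 0.827 to 0.853 across the slides. The 6 h arrays correlated at 0.960 to 0.979 with each other and at 0.325 to 0.424 with the unelicited arrays. The highest signal was 12100 and 19700 on the slide 1 arrays and lay between 248000 and 386000 on the compared arrays of slide 2. Unelicited levels on the 2 slides differed by more than 1 on the log2 scale for 703 of the 1584 targets (44.4%). The comparison was therefore repeated against the unelicited replicates 3 and 4 alone, and values within slide 2 refer to that repeat. It used the same 6 h arrays and part of the same unelicited arrays. Agreement between both comparisons is therefore in part built in. Within slide 2 the recorded array position was 1 for the 6 h arrays and 2 for the unelicited arrays. Position and treatment thus cannot be told apart there. The 3 samples taken at 3 h entered the estimate of the spread, the filter on dim probes and the choice of a target's brightest probe, and without them in the filter 1566 targets were tested. None of the leaf photosynthesis or root and nodule marker names looked for is on this array, so the tissue label was not checked against them. In RNA from whole leaves, fewer cells of a type and less RNA per cell cannot be told apart.

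Most tested targets differed between 6 h and unelicited leaves, in both directions. Of 1584 targets, 586 (37.0%) were called higher at 6 h and 622 (39.3%) lower. On slide 2 alone 593 (37.4%) were called higher and 663 (41.9%) lower. Of the 586 targets called higher, 540 were also called higher on slide 2, and of the 622 called lower, 592 were also called lower there. No target was called in opposite directions. The median log2 difference of the targets called higher was 3.01 and that of the targets called lower was −2.91. In 101 targets the rise exceeded 6 on the log2 scale, and in 52 the fall did. No value at 6 h overlapped an unelicited one for 561 of the targets called higher and 592 of those called lower. This held for every probe named below as called, unless stated otherwise.

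How many targets count as lower depended on the scaling and on the dim probes. Of the tested targets, 51 were not well above background on any unelicited array and 207 on no 6 h array. Such a target was tested because another group, unelicited, 6 h or 3 h, was bright on every array. A named gene is printed from the probe that the naming rule chose, which in some genes is not the brighter one that stands for the target in family counts. Where that is so, the brighter probe's difference is given beside it. With only the probes well above background on every array, 470 targets were called higher and 296 lower. Taking each array's 75th percentile over those probes moved the median difference of all targets to −1.18, against −0.12 as reported, and gave 406 higher and 820 lower. That alternative is called the percentile over bright probes below. Family counts below are read against 37.0% higher and 39.3% lower. Each family's direction was checked under that percentile, quantile normalization, normexp background correction and, on slide 2, the spike-in controls, which are meant by every scaling.

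**Figure D1:**
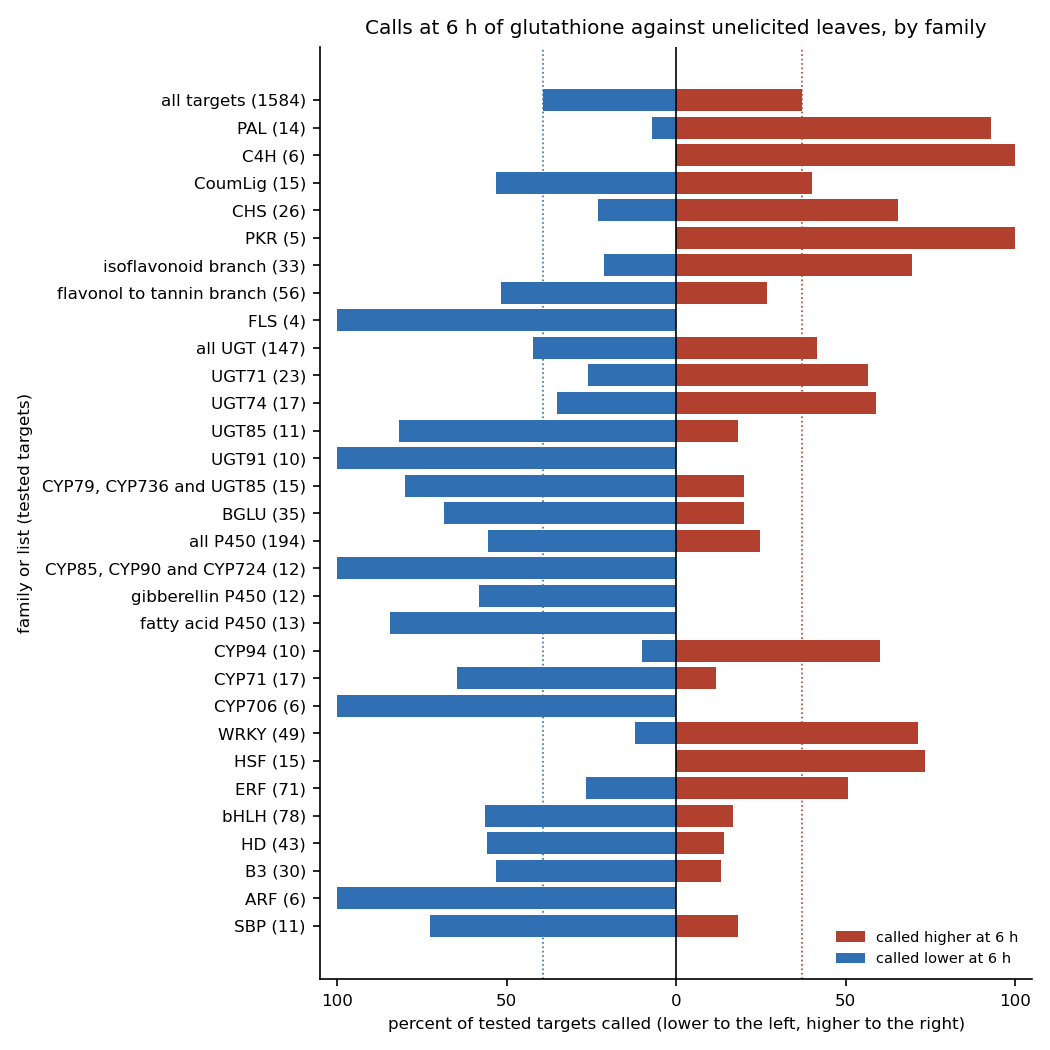
Bars give the percent of tested targets of each family called higher at 6 h (right, red) or lower (left, blue) against unelicited leaves, with the number of tested targets in brackets and dotted lines at the percentages over all targets (37.0% and 39.3%). PAL, C4H and PKR lie almost wholly to the right, and FLS, UGT91, ARF, CYP706 and the CYP85, CYP90 and CYP724 names wholly to the left.

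Regulators were among the largest rises, and transcription factors made up 1025 of the 1584 tested targets. As a class they were called higher in 36.7%, near the 37.0% over all targets. The largest log2 difference of any probe was that of the C2H2 zinc finger LjZF-C2H2-34. It reached 9.82, 10.04 and 9.01 in 6 h leaves, against −5.30 and −4.70 on slide 1 and −3.50 and −4.23 on slide 2 in unelicited leaves, a log2 difference of 14.06 ± 0.44 (SE, adjusted p = 8.54e-09). Its second probe gave 9.95, so the size depends on the probe and the direction does not. The ethylene response factor LjERF41 stood at 5.68 and 4.29 (1 spot was left out as an outlier) at 6 h, against −7.89 and −6.71 on slide 1 and −6.94 and −7.18 on slide 2 in unelicited leaves. The basic helix-loop-helix factor LjbHLH86 stood at 4.88, 4.91 and 4.37 at 6 h, against −7.13 and −6.86 on slide 1 and −7.02 and −7.25 on slide 2 in unelicited leaves. Neither factor's probe was well above background on any unelicited array, so their rises are bounds, at least 1097-fold for LjERF41 (adjusted p = 4.51e-08) and at least 915-fold for LjbHLH86 (adjusted p = 1.45e-09). These are the dimmer probes of both factors, and the brighter ones, also not well above background there, gave at least 1080-fold and at least 1295-fold. Such a bound sets the group that was not measured at the lowest signal well above background on each of its arrays. Among enzymes, the glycosyltransferase UGT73B_chr4.CM0739.130.nd had 7.30, 7.89 and 7.01 at 6 h, against −3.89 and −3.26 on slide 1 and −3.92 and −5.24 on slide 2 in unelicited leaves. Its difference was 11.47 ± 0.46 (SE, adjusted p = 2.44e-08), and 11.41 on the brighter probe of the same gene model, named IFLGT03_chr4.CM0739.130.nd. All 4 genes were low on each unelicited array of both slides and high on each array at 6 h.

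Among the largest falls were beta-glucosidases and P450s. LjBGLU4_ntc had −6.67, −6.31 and −6.34 at 6 h, against 2.85 and 2.64 on slide 1 and 6.74 and 6.97 on slide 2 in unelicited leaves. It was not well above background at 6 h, and was at least 546-fold lower there (adjusted p = 4.61e-06), or at least 2266-fold within slide 2. The P450 CYP82A_LjSGA_013827.2 had on its dimmer probe −5.72, −4.70 and −4.65 at 6 h, against 3.83 and 3.89 on slide 1 and 5.89 and 5.90 on slide 2 in unelicited leaves. That probe was not well above background at 6 h and was at least 576-fold lower (adjusted p = 2.96e-07). The brighter probe, well above background on 2 of the 3 arrays at 6 h, differed by −9.27 ± 0.78 (SE, adjusted p = 2.24e-06). On the probes printed in full every 6 h array lay below every unelicited one, and the unelicited arrays of slide 2 lay above those of slide 1.

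Entry into the phenylpropanoid pathway rose at its first steps. All 6 tested targets of cinnamate 4-hydroxylase (C4H or CYP73A), which hydroxylates cinnamic acid, and 13 of 14 phenylalanine ammonia-lyases (PAL), which make that acid from phenylalanine, were called higher, in both comparisons. The median log2 difference was 7.51 for C4H and 3.20 for PAL, against −0.12 over all targets. PAL12_LjSGA_102693.1 had 4.32, 4.38 and 4.41 at 6 h, against 0.00 and 0.07 on slide 1 and −1.03 and 0.54 on slide 2 in unelicited leaves, a difference of 4.47 ± 0.35 (SE, adjusted p = 1.48e-06). PAL02, PAL03 and PAL04, whose names share the label chr1.CM0033, lay within 1 of each other on every array. They differed from unelicited leaves by 3.19 to 3.26. PAL09_chr5.LjT17D03.50.nd was the one that fell, with −0.24, 0.98 and 1.52 at 6 h, against 3.88 and 3.80 on slide 1 and 1.98 and 2.75 on slide 2 in unelicited leaves (adjusted p = 0.00248). The unelicited arrays of PAL09 lay higher on slide 1 than on slide 2. Under quantile normalization 7 PAL targets were called higher and 2 lower.

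The C4H names split by size. CYP73ALT_ntc had on its brighter probe 7.73, 6.92 and 6.64 at 6 h, against 1.16 and 0.82 on slide 1 and −4.83 and −3.96 on slide 2 in unelicited leaves, a difference of 8.80 ± 1.34 (SE, adjusted p = 1.63e-04). Its unelicited level was thus higher on slide 1, and the difference within slide 2 was 11.50. The dimmer probe of the same name was not well above background on any unelicited array and rose at least 2620-fold. C4H01_chr5.LjT24B10.30.nc had 7.52, 6.78 and 6.32 at 6 h, against −1.67 and −1.86 on slide 1 and −5.94 and −5.18 on slide 2 in unelicited leaves, a difference of 10.54 ± 1.03 (SE, adjusted p = 1.21e-05). CYP73A_LjSGA_031602.1 was already bright in unelicited leaves and rose less, with 8.84, 9.25 and 8.77 at 6 h, against 4.79 and 4.95 on slide 1 and 4.85 and 4.47 on slide 2 in unelicited leaves. Its difference was 4.19 ± 0.26 (SE, adjusted p = 3.19e-07), and 0.73 under quantile normalization (adjusted p = 0.155). C4H02 and CYP73ALT lay within 1 of each other on every compared array, and whether their probes read 1 gene was not tested.

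The coumarate CoA ligases (CoumLig), which activate coumaric acid for the branches beyond, did not move as a group. Of 15 tested targets 6 were called higher and 8 lower, with a median of −0.84, and under normexp background correction the split was 4 higher and 2 lower. CoumLig12_LjSGA_063891.1 rose by 4.57 ± 0.53 (SE, adjusted p = 2.28e-05), with 7.62, 9.12 and 7.87 at 6 h, against 2.99 and 3.04 on slide 1 and 4.51 and 4.01 on slide 2 in unelicited leaves. CoumLig14_LjSGA_094072.1 fell, with a difference of −2.35 ± 0.37 (SE, adjusted p = 1.93e-04), and −0.70 under normexp (adjusted p = 0.263). The first gene was brighter in unelicited leaves on slide 2 and the second on slide 1.

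Chalcone synthase (CHS), which condenses coumaroyl-CoA with malonyl-CoA into the chalcone skeleton, rose in 17 of 26 tested targets and fell in 6. The median was 5.67, and 4.58 within slide 2. CHS20_chr3.CM0590.740.nc had 8.28, 8.48 and 7.85 at 6 h, against 1.60 and 1.95 on slide 1 and 2.37 and 3.63 on slide 2 in unelicited leaves, a difference of 5.82 ± 0.44 (SE, adjusted p = 1.06e-06). It belongs to 13 CHS targets linked by values within 1 log2 unit of each other on every array, with differences of 5.59 to 6.47. No probe sequences were used here, and whether these 13 targets read separate transcripts was not tested. Not all CHS genes rose. CHS11_chr1.CM0593.380.nc fell, with −3.53, −2.93 and −2.19 at 6 h, against 5.27 and 5.23 on slide 1 and 3.52 on slide 2 (1 spot was left out as an outlier) in unelicited leaves (adjusted p = 1.81e-06).

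The reductases that act together with CHS to give 5-deoxychalcones, the precursors of the legume isoflavonoids, carry the names PKR and CHR. All 5 PKR targets were called higher, in both comparisons, with a median of 6.00. PKR5_chr2.CM0191.410.nc had 8.10, 8.31 and 7.75 at 6 h, against 2.18 and 1.93 on slide 1 and 1.66 and 2.29 on slide 2 in unelicited leaves, a difference of 6.03 ± 0.27 (SE, adjusted p = 4.33e-08). Of the 4 tested CHR targets 2 rose and 2 fell. CHR04_CM1092.70.nc rose by 8.25 ± 0.86 (SE, adjusted p = 1.02e-05), while CHR01_LjT35G18.140.nd differed by −8.15 ± 0.34 (SE, adjusted p = 3.10e-08). CHR01 had −4.15, −5.02 and −4.03 at 6 h, against 4.02 and 3.58 on slide 1 and 3.73 and 3.66 on slide 2 in unelicited leaves, and 1 of its 3 spots at 6 h was well above background. Its unelicited level was nearly the same on both slides.

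Chalcone isomerase (CHI), which closes the chalcone into a flavanone, showed 1 rise and 1 fall among 6 tested targets. CHI06_chr5.CM0034.130.nc had 5.89, 5.81 and 5.05 at 6 h, against 0.52 and 0.53 on slide 1 and 0.38 and 0.55 on slide 2 in unelicited leaves, a difference of 5.09 ± 0.28 (SE, adjusted p = 1.14e-07). CHI02_chr5.CM0260.390.nc had 3.23, 4.94 and 4.48 at 6 h, against 1.99 and 2.38 on slide 1 and 4.85 and 5.52 on slide 2 in unelicited leaves, so the groups overlapped and the 2 slides stood apart. Its difference was 0.53 (adjusted p = 0.576), and −0.97 within slide 2 (adjusted p = 0.114).

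The isoflavonoid branch rose in 23 of 33 tested targets and fell in 7, with a median of 3.64, and 2.30 within slide 2. All 4 tested targets listed under isoflavone synthase (CYP93C), which moves the aryl ring to make the isoflavone skeleton, were called higher in both comparisons. Under quantile normalization 2 were called higher, and 2 with the spike-in controls on slide 2. The smallest difference in this list, 1.47, was also the median of the CYP93 names outside CYP93C, so a target may count in both. CYP93C_chr4.CM0692.280.nc had 5.59, 6.32 and 5.64 at 6 h, against −2.32 and −1.27 on slide 1 and 1.32 and 1.98 on slide 2 in unelicited leaves. Its difference was 5.92 ± 0.93 (SE, adjusted p = 2.03e-04), and 4.20 within slide 2. CYP93C17_LjT24P23.50.nc rose less, by 2.92 (adjusted p = 0.002), and by 0.04 under quantile normalization (adjusted p = 0.957). Both genes were brighter on slide 2 than on slide 1 in unelicited leaves. By its name CYP93C17 lies on the same clone, LjT24P23, as 4Meth1_LjT24P23.70.nc, which had 9.06, 9.83 and 9.37 at 6 h, against 3.31 and 3.59 on slide 1 and 5.65 and 5.92 on slide 2 in unelicited leaves.

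Hydroxylases of the isoflavone ring (CYP81E and I2H) were called higher in 4 of 5 tested targets. I2H3_chr2.CM0250.30.nc had 8.16, 8.62 and 7.56 at 6 h, against 1.70 and 1.88 on slide 1 and 0.41 and 0.32 on slide 2 in unelicited leaves, a difference of 7.04 ± 0.46 (SE, adjusted p = 3.85e-07). CYP81E6_ntc rose by 5.14 ± 0.90 (SE, adjusted p = 4.27e-04), and by 3.37 within slide 2. Hydroxyisoflavanone dehydratase (HID), which completes the isoflavone, went both ways, with 2 targets higher and 3 lower. HID3 had 7.03, 6.71 and 7.07 at 6 h, against 2.20 and 2.14 on slide 1 and 3.95 and 3.87 on slide 2 in unelicited leaves, and rose by 3.90 (adjusted p = 3.22e-05). HID5_chr4.CM0079.310.nc had 0.36, 0.32 and 1.04 at 6 h, against 5.47 and 5.64 on slide 1 and 7.67 and 6.90 on slide 2 in unelicited leaves, a difference of −5.85 ± 0.51 (SE, adjusted p = 2.91e-06). Both HID genes stood higher in unelicited leaves on slide 2 than on slide 1.

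The last steps to vestitol are taken by isoflavone reductase (IFR), vestitone reductase (VR) and pterocarpan reductase (PTR). PTR1_chr3.CM0216.40.nd had 9.05, 9.57 and 8.43 at 6 h, against −0.28 and −3.16 on slide 1 and 2.23 and 2.12 on slide 2 in unelicited leaves, a difference of 8.79 ± 1.10 (SE, adjusted p = 3.98e-05), and both tested PTR targets rose. VR1_chr1.CM1255.320.nc had 8.95, 9.54 and 9.09 at 6 h, against 1.64 and 1.72 on slide 1 and 5.01 and 5.93 on slide 2 in unelicited leaves. Its difference was 5.62 ± 0.96 (SE, adjusted p = 3.49e-04), and 3.72 within slide 2. VR2_chr1.CM0017.190.nc fell, with −0.76, −0.66 and −0.20 at 6 h, against 2.89 and 2.77 on slide 1 and 3.36 and 3.22 on slide 2 in unelicited leaves (adjusted p = 9.11e-07). IFR7_chr2.CM0249.1080.nc had 9.72, 9.99 and 9.51 at 6 h, against 2.26 and 2.47 on slide 1 and 8.09 and 7.49 on slide 2 in unelicited leaves. Its rise of 4.66 ± 1.33 (SE, adjusted p = 0.00875) was 1.95 within slide 2 (adjusted p = 2.68e-04), and its unelicited level was 5.42 higher on slide 2 than on slide 1. Quantile normalization gave 2.61 (adjusted p = 0.0859). Of 6 IFR targets 4 were called higher in each comparison, 3 of them in both, and 1 was called lower within slide 2. All 4 genes were thus called, but the size of the rise in IFR7, VR1 and PTR1 differed between the slides. The PTR median of 7.05 was 5.64 within slide 2.

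**Figure D2:**
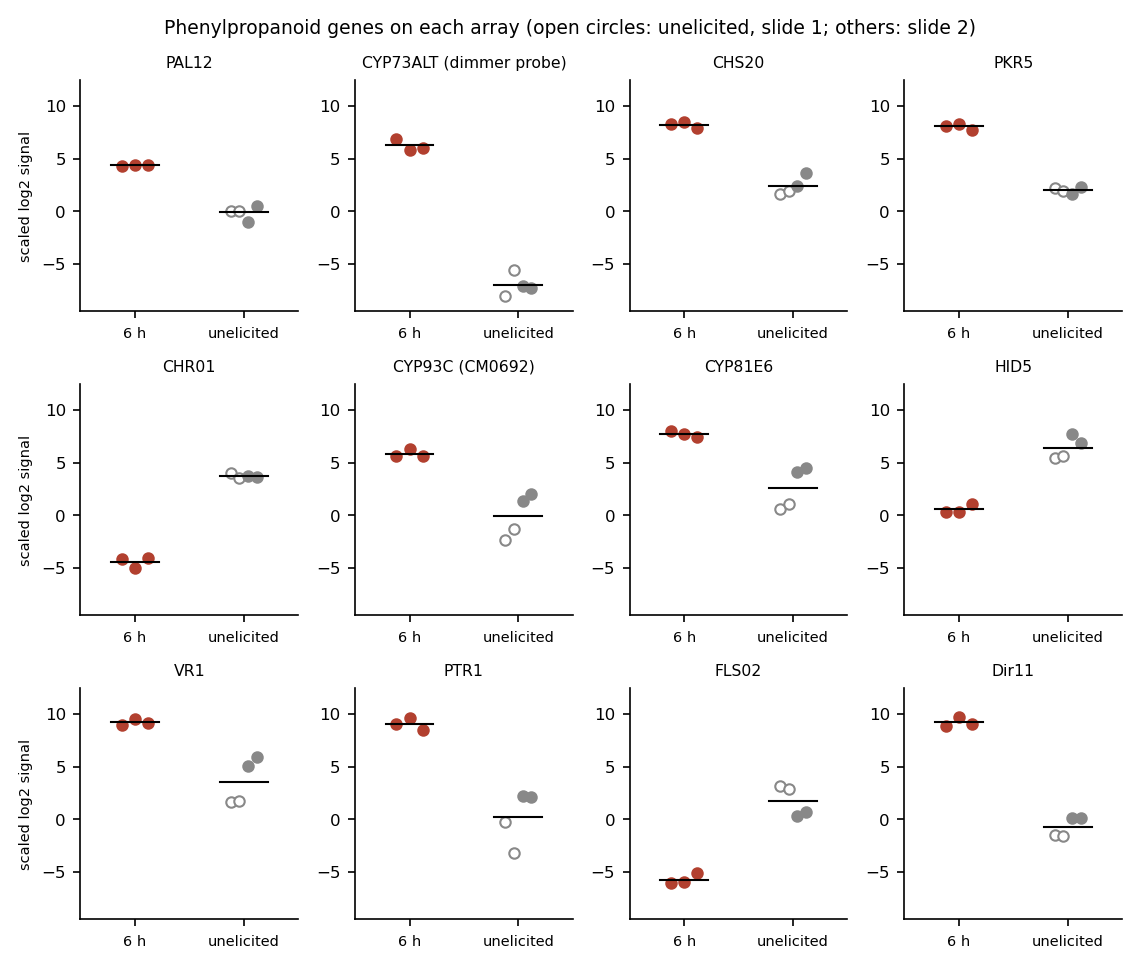
Each panel plots 1 probe: scaled log2 signal (y axis) on the 3 arrays at 6 h (red, left) and the 4 unelicited arrays (grey, right; open circles slide 1, filled circles slide 2), with bars at the means; CYP73ALT is its dimmer probe. PAL12, CYP73ALT, CHS20, PKR5, CYP93C, CYP81E6, VR1, PTR1 and Dir11 lie higher at 6 h on every array, and CHR01, HID5 and FLS02 lower.

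The branch toward flavonols, anthocyanidins and tannins fell more often than it rose, with 15 of 56 tested targets higher and 29 lower (median −1.01), but 13 higher and 15 lower under normexp. All 4 flavonol synthases (FLS), which make flavonols from dihydroflavonols, were called lower in both comparisons, with a median of −3.26; 2 were not well above background on any 6 h array, and 2 were called lower under normexp. FLS02_chr1.LjB17A22.120.nc had −6.09, −5.94 and −5.14 at 6 h, against 3.12 and 2.86 on slide 1 and 0.34 and 0.65 on slide 2 in unelicited leaves. It was not well above background at 6 h and was at least 65.5-fold lower there (adjusted p = 4.92e-06). FLS03_chr4.CM0536.220.nd, measured on every array, fell with a difference of −4.10 ± 0.29 (SE, adjusted p = 6.10e-07). Names beginning with AAT were called lower in 5 of 6 targets (2 under normexp), among them AAT05_chr3.CM0711.100.nd with a difference of −3.56 (adjusted p = 9.42e-06). The FHYD names gave 6 higher and 11 lower of 18.

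A few genes of this branch rose. LDO09_LjSGA_078569.1 had 4.13, 5.21 and 4.49 at 6 h, against −1.30 and −1.85 on slide 1 and −0.59 and −0.43 on slide 2 in unelicited leaves, a difference of 5.65 ± 0.40 (SE, adjusted p = 6.93e-07). DFOLR08_chr1.CM1255.280.nc had 5.22 and 4.66 (1 spot was left out as an outlier) at 6 h, against −1.84 and −1.54 on slide 1 and −1.12 and −0.34 on slide 2 in unelicited leaves, a difference of 6.15 ± 0.45 (SE, adjusted p = 1.85e-06). Its name shares the label CM1255 with that of VR1, and DFOLR08 was the 1 DFOLR target of 9 called higher. The LDO names gave 4 higher and 2 lower of 6, but 2 higher and 2 lower with the percentile over bright probes.

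Dirigent proteins (Dir), which steer the coupling of monolignols and pterocarpan formation, were called higher in 6 of 10 tested targets and lower in 3. Dir11_LjSGA_033937.1 had 8.82, 9.69 and 9.07 at 6 h, against −1.46 and −1.58 on slide 1 and 0.12 and 0.16 on slide 2 in unelicited leaves. Its difference of 9.88 ± 0.52 (SE, adjusted p = 1.00e-07) was among the largest on the array, and its second probe gave 10.18. Laccases (LAC), which oxidise monolignols in the cell wall, were called lower in 4 of 6 tested targets and higher in 1; 4 of the 6 were not well above background on any 6 h array, and under normexp 1 was called lower and none higher. LAC07_chr2.CM0249.1210.nc had −6.51, −6.26 and −6.28 at 6 h, where it was not well above background, against −1.02 and −0.60 on slide 1 and −2.30 and −0.73 on slide 2 in unelicited leaves, and was at least 8.76-fold lower (adjusted p = 2.05e-06). Just 6 of 28 laccase targets on the array were bright enough to test.

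UGTs, which attach sugars to small molecules, split by family. Over all 147 tested UGT targets 61 were called higher and 62 lower, near the shares over all targets, and 50 higher and 71 lower with the percentile over bright probes, but 51 higher and 37 lower under normexp. UGT71 (13 higher, 6 lower of 23), UGT74 (10 and 6 of 17), UGT83 (6 and 3 of 10), UGT90 (4 and 2 of 6) and UGT92 (3 and 0 of 6) held more rises under every scaling. UGT73 held 16 rises and 9 falls among 32, but 10 higher and 12 lower with the percentile over bright probes. UGT71B_LjSGA_128268.1 had on its dimmer probe 6.22, 6.91 and 5.77 at 6 h, against −4.04 and −3.48 on slide 1 and −4.46 and −4.26 on slide 2 in unelicited leaves, a difference of 10.36 ± 0.34 (SE, adjusted p = 8.70e-09), and 9.79 on the brighter probe. UGT92A_chr3.LjB09K03.30.nc had 8.38, 8.59 and 7.85 at 6 h, against 2.16 and 2.29 on slide 1 and 3.97 and 3.63 on slide 2 in unelicited leaves, a difference of 5.26 ± 0.48 (SE, adjusted p = 4.02e-06).

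UGT91 fell throughout. All 10 tested targets were called lower, in both comparisons, with a median of −4.02; 7 of them were not well above background on any 6 h array, and under normexp 4 were called lower and none higher. UGT91H_LjSGA_096934.1 had −5.74, −5.68 and −5.07 at 6 h, against 1.81 and 1.74 on slide 1 and 0.70 and 0.87 on slide 2 in unelicited leaves, and was at least 47.6-fold lower (adjusted p = 1.14e-07). UGT91H_LjSGA_028050.1 stayed measurable at 6 h, with −1.57, −1.97 and −1.33, against 0.87 and 0.75 on slide 1 and 1.39 and 2.15 on slide 2 in unelicited leaves, and differed by −2.91 ± 0.37 (SE, adjusted p = 4.16e-05). UGT78 is a family of flavonoid glycosyltransferases. Of its 4 targets 3 were called lower (2 within slide 2, 1 under normexp) and none higher, led by UGT78D_LjSGA_043170.1 which was at least 19.7-fold lower (adjusted p = 1.78e-07). UGT83A_LjT15N18.90.nd ran against its family, with −4.74, −5.33 and −4.32 at 6 h, against 2.89 and 2.77 on slide 1 and 3.99 and 4.23 on slide 2 in unelicited leaves, and was at least 217-fold lower, or at least 7.97-fold on its second probe.

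Most tested targets of the families of cyanogenic glucoside synthesis fell. In Lotus, CYP79D enzymes turn valine and isoleucine into oximes, CYP736A2 makes the cyanohydrin, and a UGT85 adds glucose. Of the 15 tested CYP79, CYP736 and UGT85 targets, 12 were called lower and 3 higher, in both comparisons, with a median of −3.76 (−4.19 within slide 2). UGT85 gave 9 lower and 2 higher of 11, CYP79 2 lower of 2, and CYP736 1 lower and 1 higher of 2. CYP79D3_ntc had −6.88, −6.50 and −6.45 at 6 h, against −1.86 and −2.93 on slide 1 and 7.46 and 7.70 on slide 2 in unelicited leaves. Every 6 h array lay below every unelicited one, but the unelicited level was 9.98 higher on slide 2 than on slide 1. CYP79D3 was on neither probe well above background at 6 h, and was at least 118-fold lower than in all unelicited leaves (adjusted p = 0.0057) and at least 3754-fold lower within slide 2 (adjusted p = 2.46e-08). Its second probe gave at least 30.1-fold against all unelicited leaves. CYP79D_LjSGA_030566.2 showed the same pattern, with −6.49, −4.28 and −6.15 at 6 h, against −2.17 and −3.29 on slide 1 and 6.67 and 6.70 on slide 2 in unelicited leaves. Whether the 2 CYP79 names read separate transcripts was not tested.

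CYP736A2_ntc had −2.55, −4.39 and −2.90 at 6 h, against −0.64 and −1.48 on slide 1 and 5.61 and 6.00 on slide 2 in unelicited leaves. Its difference was −5.65 ± 1.71 (SE, adjusted p = 0.0117), and −9.09 within slide 2 (adjusted p = 6.12e-07). For these 3 names every unelicited array of slide 2 lay far above those of slide 1, and the part of the slide in that gap was not tested. The other member, CYP736LT_1_ntc, rose by 1.61 (adjusted p = 0.00131). UGT85J_LjT45I18.30.nd fell on both slides, with 1.06, 0.66 and 1.27 at 6 h, against 5.33 and 5.10 on slide 1 and 6.13 and 7.20 on slide 2 in unelicited leaves, a difference of −4.94 ± 0.48 (SE, adjusted p = 6.63e-06). UGT85J_LjSGA_003166.2 went the other way, with 8.94, 9.38 and 8.75 at 6 h, against 1.21 and 1.30 on slide 1 and 4.15 and 4.13 on slide 2 in unelicited leaves, a difference of 6.33 ± 0.74 (SE, adjusted p = 2.32e-05). The 2 UGT85J genes thus moved apart.

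Beta-glucosidases, which cut glucose from stored glucosides and so release their active part, also fell. Of 35 tested targets named BGLU, 24 were called lower and 7 higher, in both comparisons, with a median of −3.76, and 13 of them were not well above background on any 6 h array. LjBGLU2_ntc had on its brighter probe −2.81, −2.79 and −4.23 at 6 h, against 2.90 and 2.91 on slide 1 and 7.26 and 7.77 on slide 2 in unelicited leaves, a difference of −8.49 ± 1.20 (SE, adjusted p = 9.31e-05). Its other probe was not well above background at 6 h and gave a fall of at least 1360-fold. BGLU63_LjSGA_080542.1 was close in unelicited leaves on both slides, with −2.78, −2.81 and −2.39 at 6 h, against 1.19 and 1.03 on slide 1 and 1.05 and 1.14 on slide 2 in unelicited leaves, and differed by −3.76 ± 0.28 (SE, adjusted p = 8.60e-07). The falls of LjBGLU2 and LjBGLU4 were larger within slide 2, that of BGLU63 was not. BGLU7_chr4.LjT10E08.50.nc rose, with 2.95, 3.09 and 3.15 at 6 h, against −2.03 and −1.86 on slide 1 and −0.96 and −1.04 on slide 2 in unelicited leaves (adjusted p = 6.84e-07).

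The 3 tested targets named BGLUG all rose, with a median of 7.47, and 5.28 within slide 2. The smallest BGLUG difference and the largest CYP71 difference were both 6.75, so a target may count in both families. BGLUG2_LjSGA_034905.1 had 4.40, 4.45 and 2.72 at 6 h, against −6.59 and −5.82 on slide 1 and −1.58 and −0.98 on slide 2 in unelicited leaves, a difference of 7.60 ± 1.27 (SE, adjusted p = 3.15e-04). Within slide 2 its difference was 5.14. Enzymes that dispose of cyanide gave no direction that held under every scaling: the nitrilases (NIT) were called higher in 8 and lower in 1 of 11, but 4 higher and 4 lower under quantile normalization. NIT02_chr4.CM0100.80.nc rose by 2.63 ± 0.26 (SE, adjusted p = 7.19e-06). NIT05_LjNIT4A, named after the nitrilases that hydrolyse beta-cyanoalanine, had 5.85, 5.81 and 5.68 at 6 h, against 3.46 and 3.52 on slide 1 and 4.88 and 4.50 on slide 2 in unelicited leaves. Its difference of 1.69 (adjusted p = 0.00195) turned to −0.89 under quantile normalization (adjusted p = 0.0150). The beta-cyanoalanine synthase cyala02_LjB12P21.10.nc had 5.07, 4.77 and 5.07 at 6 h, against 5.17 and 5.09 on slide 1 and 5.19 and 4.70 on slide 2 in unelicited leaves, groups that overlapped (adjusted p = 0.809). With the percentile over bright probes its difference was −1.13 (adjusted p = 0.00275).

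**Figure D3:**
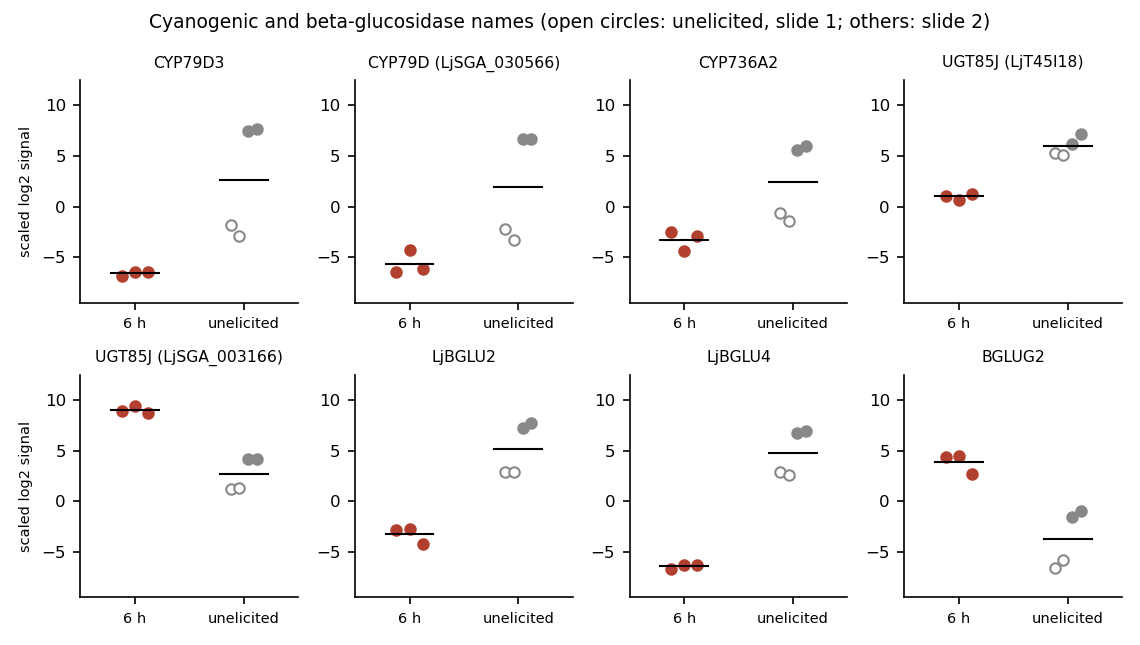
Each panel plots 1 probe: scaled log2 signal (y axis) on the 3 arrays at 6 h (red, left) and the 4 unelicited arrays (grey, right; open circles slide 1, filled circles slide 2), with bars at the means. CYP79D3, CYP79D and CYP736A2 lie lower at 6 h than on any unelicited array, while their unelicited points fall into 2 levels by slide; UGT85J (LjSGA_003166) and BGLUG2 lie higher at 6 h.

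The P450s, oxidases of many plant pathways, fell more often than they rose, with 108 of 194 tested targets lower and 48 higher (median −1.87). The CYP85, CYP90 and CYP724 families, which build brassinosteroids, fell in all 12 tested targets, in both comparisons, with a median of −2.66. Of the 12, 6 were not well above background on any 6 h array, so this median rests in part on fitted values of unmeasured levels, and under normexp 6 fell and none rose. With the CYP92 names, which some studies place in that pathway, 12 of 15 fell and 2 rose. CYP90A_LjSGA_044453.1 had −4.84, −6.31 and −6.09 at 6 h, against −0.56 and −0.81 on slide 1 and −0.16 and 0.33 on slide 2 in unelicited leaves, and was at least 15.9-fold lower (adjusted p = 1.93e-06). CYP85_LjSGA_010577.1 had −5.91, −5.36 and −1.82 at 6 h, 1 array standing above the others, against 0.16 and −0.25 on slide 1 and 1.16 and 1.84 on slide 2 in unelicited leaves, a difference of −5.09 ± 0.88 (SE, adjusted p = 3.90e-04).

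The CYP88, CYP701 and CYP714 names, families that make or inactivate gibberellins, had 7 of 12 tested targets lower (4 under normexp) and none higher; 4 were not well above background on any 6 h array. CYP88A_LjSGA_147856.1, of the family of ent-kaurenoic acid oxidases, had −6.56, −6.30 and −6.23 at 6 h, against 0.57 and 0.40 on slide 1 and −0.43 and −0.16 on slide 2 in unelicited leaves, and was at least 20.9-fold lower (adjusted p = 6.93e-07). The abscisic acid hydroxylase family CYP707 had 1 target of 3 called higher and none lower, and 1 higher and 1 lower within slide 2, with no call shared. CYP707A_LjT10I01.150.nc, the target called higher, differed by 1.70 (adjusted p = 0.0281), and by 1.13 within slide 2 (adjusted p = 0.163). Its groups overlapped, with −2.62 on 1 array at 6 h and −2.13 on 1 unelicited array. The 2 probes of CYP707ALT_1_ntc disagreed, the brighter with a difference of 1.10 that was not called (adjusted p = 0.126) and the dimmer with 3.70 (adjusted p = 1.66e-06). Within slide 2 the brighter probe rose by 2.70 (adjusted p = 3.96e-04).

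P450s of oxylipins and fatty acids differed by family. CYP94 enzymes oxidise the hormone jasmonoyl-isoleucine and fatty acids, and 6 of 10 tested targets rose while 1 fell. CYP94A_chr1.CM0375.290.nd had 8.90, 9.49 and 9.21 at 6 h, against 1.42 and 1.71 on slide 1 and 1.07 and 0.50 on slide 2 in unelicited leaves, a difference of 8.03 ± 0.36 (SE, adjusted p = 4.33e-08). CYP94C_LjT01G11.220.nd had 2.15, 1.75 and 1.52 at 6 h, against −7.31 and −6.61 on slide 1 and −7.00 and −7.19 on slide 2 in unelicited leaves, where it was not well above background, and rose at least 121-fold (adjusted p = 8.54e-09). CYP94D_chr1.LjT01M20.50.nc was the member that fell, by a difference of −7.91 ± 0.40 (SE, adjusted p = 8.13e-08).

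In CYP74, the family of allene oxide synthases and hydroperoxide lyases that use fatty acid hydroperoxides, 1 of 6 targets rose and 3 fell. CYP74A_chr5.CM0089.580.nd had 7.57, 7.64 and 8.03 at 6 h, against 3.64 and 3.85 on slide 1 and 6.58 and 5.95 on slide 2 in unelicited leaves. Its rise of 2.74 ± 0.66 (SE, adjusted p = 0.00336) became −0.33 under quantile normalization (adjusted p = 0.583). Its unelicited level was 2.52 higher on slide 2 than on slide 1. CYP74B_chr3.CM0196.320.nc fell, with 1.61, 1.66 and 1.76 at 6 h, against means of 4.96 on slide 1 and 5.91 on slide 2 in unelicited leaves (adjusted p = 2.61e-06). The CYP77, CYP78, CYP86, CYP96 and CYP704 names, several of which make cutin and wax in Arabidopsis, fell in 11 of 13 tested targets (7 under normexp), and none rose. CYP96A_LjSGA_065095.1 had on its dimmer probe −5.51, −6.39 and −4.38 at 6 h, against 1.76 and 1.88 on slide 1 and 2.64 and 2.26 on slide 2 in unelicited leaves, and was at least 86.1-fold lower (adjusted p = 1.89e-07). The brighter probe, dim at 6 h as well, gave a fall of at least 53.1-fold. CYP77A_LjSGA_017234.1 differed by −5.24 ± 1.27 (SE, adjusted p = 0.00346), with 1 of the 3 arrays at 6 h, at 0.19, above the other 2, and by −4.78 on its brighter probe.

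The sterol families CYP51 and CYP710 rose in 3 of 4 targets. CYP710ALT_1_ntc, a sterol C-22 desaturase by family, had 6.49, 7.14 and 5.94 at 6 h, against −2.68 and −2.85 on slide 1 and −0.93 and −0.56 on slide 2 in unelicited leaves, a difference of 8.28 ± 0.61 (SE, adjusted p = 8.49e-07). CYP51LT_1_ntc, a sterol demethylase by family, fell with a difference of −1.60 ± 0.32 (SE, adjusted p = 0.00111). The carotenoid hydroxylases CYP97 fell in all 3 tested targets, CYP97B_chr2.CM0018.70.nc with 1.14, 1.25 and 1.22 at 6 h, against 2.72 and 2.45 on slide 1 and 3.65 and 3.80 on slide 2 in unelicited leaves. The triterpene oxidases CYP716 also fell in all 3, CYP716A_LjSGA_126580.1 with a difference of −4.65 ± 0.44 (SE, adjusted p = 5.19e-06).

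CYP706 fell in all 6 tested targets in both comparisons, with a median of −4.43. CYP706ALT_1_ntc had −0.71, −1.41 and −0.74 at 6 h, against 2.97 and 2.82 on slide 1 and 3.50 and 3.23 on slide 2 in unelicited leaves, a difference of −4.08 ± 0.30 (SE, adjusted p = 9.48e-07). CYP71 (2 higher, 11 lower of 17), CYP76 (3 and 13 of 18) and CYP82 (7 and 18 of 26) held more falls under every scaling. Single members left the common direction. CYP82A_LjSGA_052400.1 had 5.50, 4.86 and 4.46 at 6 h, against −3.19 and −3.30 on slide 1 and −2.42 and −2.31 on slide 2 in unelicited leaves, a rise of 7.74 ± 0.38 (SE, adjusted p = 7.10e-08) in a family that mostly fell. CYP76E_LjSGA_009140.1 was at least 36.9-fold lower at 6 h on its dimmer probe (adjusted p = 1.14e-07), and the brighter, well above background on every compared array, differed by −5.23. CYP71A_LjSGA_042348.1 had −6.71, −6.39 and −6.34 at 6 h, against −1.77 and −2.21 on slide 1 and 5.69 and 6.65 on slide 2 in unelicited leaves, and fell at least 83.4-fold, or at least 1412-fold within slide 2. The brighter probe of its gene model, named FHYD21_LjSGA_042348.1, gave at least 71.8-fold. CYP83 had 5 higher and 2 lower of 13, but 4 and 6 within slide 2.

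The 1025 tested transcription factor targets split evenly, with 376 higher and 370 lower (median 0.06), but with 242 higher and 512 lower under the percentile over bright probes. Among the families that held more rises under every scaling were WRKY, HSF, ERF, NAC (NAM and NAC names), MYB, MBF and PLATZ. WRKY factors, many of them regulators of defence, rose in 35 of 49 tested targets and fell in 6. LjWRKY39 had 7.77, 7.64 and 6.36 at 6 h, against −4.88 and −4.28 on slide 1 and −3.28 and −3.27 on slide 2 in unelicited leaves, a difference of 11.18 ± 0.47 (SE, adjusted p = 3.63e-08). LjWRKY63 had on its dimmest probe 3.08, 2.73 and 2.32 at 6 h, against −6.32 and −5.57 on slide 1 and −6.78 and −6.13 on slide 2 in unelicited leaves, where that probe was not well above background, and rose at least 227-fold. The brightest probe, LjWRKY63_est, was well above background on 1 unelicited array and gave a difference of 8.08. LjWRKY1 fell instead, its dimmer probe with −4.41, −3.91 and −4.38 at 6 h, where that probe was not well above background, against 0.65 and 0.51 on slide 1 and 0.92 and 0.59 on slide 2 in unelicited leaves (adjusted p = 9.21e-08). Its brighter probe, measured on every compared array, differed by −4.75.

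Heat shock factors (HSF), which switch on chaperone genes, rose in 11 of 15 tested targets and none fell, while 1 fell within slide 2. LjHSF8 had 5.91, 6.47 and 5.77 at 6 h, against −0.12 and −0.17 on slide 1 and 1.85 and 1.55 on slide 2 in unelicited leaves, a difference of 5.27 ± 0.53 (SE, adjusted p = 7.94e-06). LjHSF14 had 4.64, 4.44 and 4.39 at 6 h, against −3.57 and −3.68 on slide 1 and −7.05 and −7.23 on slide 2 in unelicited leaves, a difference of 9.88 ± 0.89 (SE, adjusted p = 3.56e-06), but 5.09 on its other probe. The bridging factor family MBF, coactivators with a role in heat tolerance in Arabidopsis, rose in 3 of 5 and fell in 1. LjMBF1-1 had 9.05, 9.17 and 8.02 at 6 h, against 2.56 and 2.74 on slide 1 and 1.07 and 0.92 on slide 2 in unelicited leaves, a difference of 6.92 ± 0.50 (SE, adjusted p = 8.04e-07). The leaves at 6 h had been held at 28 °C and the labels give no temperature for the unelicited ones, so the part of temperature in these rises was not tested.

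The ethylene response factors (ERF) rose in 36 of 71 tested targets and fell in 19. The split was 29 higher and 7 lower under normexp, and 28 higher and 22 lower with the percentile over bright probes. LjERF5 had 5.13, 4.92 and 4.38 at 6 h, against −8.00 and −7.07 on slide 1 and −5.44 and −5.50 on slide 2 in unelicited leaves, where it was not well above background, and rose at least 972-fold (adjusted p = 9.21e-08). LjERF61 fell, with −6.55, −5.46 and −3.42 at 6 h, against 3.57 and 3.43 on slide 1 and 1.66 and 2.07 on slide 2 in unelicited leaves, a difference of −7.83 ± 0.72 (SE, adjusted p = 4.53e-06). The brightest probe of that target, LjERF61_est, was not well above background on any 6 h array and gave at least 148-fold. NAC factors, regulators of senescence and stress, rose in 25 of 45 and fell in 8, with 15 higher and 14 lower under the percentile over bright probes. LjNAM24 had on its dimmer probe 7.96, 8.59 and 7.98 at 6 h, against −0.95 and −1.30 on slide 1 and −5.00 and −3.81 on slide 2 in unelicited leaves, a difference of 10.94 ± 0.88 (SE, adjusted p = 1.60e-06), and 10.04 on the brighter, and LjNAM12 rose by 9.99 ± 0.47 (SE, adjusted p = 6.06e-08). MYB factors, several of which control phenylpropanoid genes, rose in 32 of 63 and fell in 18, or 27 and 25 with the percentile over bright probes. LjMYB12a_LjMYB31 had 6.02, 5.96 and 5.49 at 6 h, against −6.22 and −7.07 on slide 1 and −3.64 and −2.15 on slide 2 in unelicited leaves. The difference was 10.59 on that probe and 6.06 on the dimmer LjMYB12a_LjMYB31_est. LjMYB21 was not well above background in unelicited leaves and rose at least 162-fold (adjusted p = 7.25e-08).

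Single members of other families rose strongly. The homeodomain factor LjHD19 had 4.61, 5.79 and 4.86 at 6 h, against −5.19 and −6.78 on slide 1 and −4.98 and −4.77 on slide 2 in unelicited leaves, a rise of 10.51 ± 0.49 (SE, adjusted p = 6.06e-08) in a family with more falls than rises. The dimmer probe of LjGRAS37 was not well above background in unelicited leaves and rose at least 204-fold (adjusted p = 8.54e-09). The brighter one, well above background on 1 unelicited array, rose by 8.26, while the GRAS family gave 10 higher and 11 lower of 28. LjbZIP24 had 7.19, 6.95 and 6.42 at 6 h, against 1.22 and 1.27 on slide 1 and 0.74 and 0.57 on slide 2 in unelicited leaves, a difference of 5.90 ± 0.31 (SE, adjusted p = 1.04e-07). The bZIP family gave 16 higher and 9 lower of 30, but 11 higher and 12 lower with the percentile over bright probes. LjTAZ2 rose by 5.51 ± 0.40 (SE, adjusted p = 7.70e-07).

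ARF, AUX-IAA, HD, B3, SBP, TCP, YABBY, bHLH, ARID and DOF held more falls than rises under every scaling. Fewer falls were called under normexp, with 11 higher and 29 lower for bHLH, 1 higher and 6 lower for B3, 0 higher and 4 lower for DOF, 1 higher and 4 lower for SBP, 0 higher and 3 lower for ARF and 0 higher and 1 lower for YABBY. Auxin response factors (ARF), which bind auxin-responsive promoters, fell in all 6 tested targets in both comparisons, with a median of −2.37. LjARF15 had −2.06, −1.99 and −1.29 at 6 h, against 0.40 and 0.27 on slide 1 and 0.73 and 0.80 on slide 2 in unelicited leaves, a difference of −2.33 ± 0.28 (SE, adjusted p = 3.08e-05). Their repressors AUX-IAA fell in 13 of 23 and rose in 5. LjAUX-IAA10_est had −2.53, −3.29 and −3.30 at 6 h, against 1.87 and 1.37 on slide 1 and 1.37 and 1.06 on slide 2 in unelicited leaves, a difference of −4.46 ± 0.30 (SE, adjusted p = 4.79e-07). The probes named LjAUX-IAA10 fell less, the brightest by a difference of −1.41, so the size depends on the probe. LjAUX-IAA3 rose, its dimmer probe with 7.16, 7.47 and 7.44 at 6 h, against 4.01 and 3.95 on slide 1 and 2.97 and 2.19 on slide 2 in unelicited leaves, a difference of 4.07 ± 0.46 (SE, adjusted p = 1.94e-05) (3.95 on the brighter), and 1.30 under quantile normalization (adjusted p = 0.160).

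Homeodomain factors (HD) fell in 24 of 43 tested targets and rose in 6, LjHD70 with −1.97, −2.27 and −2.38 at 6 h, against 2.50 and 2.74 on slide 1 and 3.01 and 3.07 on slide 2 in unelicited leaves. B3 domain factors fell in 16 of 30 and rose in 4, and 8 were not well above background on any 6 h array. LjB3-44, on its dimmest probe, was at least 33.6-fold lower at 6 h (adjusted p = 9.21e-08), and its brightest, LjB3-44_est, at least 29.8-fold. SBP factors, which time the change from juvenile to adult growth, fell in 8 of 11 and rose in 2. LjSBP7 had −2.87, −2.74 and −3.19 at 6 h, against −0.12 and −0.48 on slide 1 and 0.34 and 0.19 on slide 2 in unelicited leaves. TCP factors, which restrain or promote leaf cell division, fell in 6 of 15 and rose in 1, so few rose while the share of falls was near that over all targets. LjTCP3 fell with a difference of −5.38 ± 0.47 (SE, adjusted p = 3.16e-06). YABBY factors, which mark the lower leaf face, fell in 4 of 5, or 3 within slide 2, and none rose. LjZF-C2C2-YABBY2 had −1.41, −1.33 and −1.23 at 6 h, against 0.68 and 0.66 on slide 1 and 0.24 and 0.66 on slide 2 in unelicited leaves (adjusted p = 1.53e-04).

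The bHLH family, to which the strongly raised LjbHLH86 belongs, fell in 44 of 78 tested targets and rose in 13 (median −1.36). LjbHLH35_est had −5.58, −6.44 and −6.39 at 6 h, where it was not well above background, against 0.15 and −0.27 on slide 1 and 0.32 and 0.26 on slide 2 in unelicited leaves, and was at least 21.3-fold lower (adjusted p = 8.89e-08). The 2 probes named LjbHLH35, joined to it by name, differed by −3.98 and −3.35. ARID factors, which bind DNA and act in chromatin, fell in 7 of 8 and rose in 1; 5 were not well above background on any 6 h array, and under normexp 1 was called lower. LjARID4 was at least 9.13-fold lower, while the measurable LjARID5 had −0.05, 0.12 and 0.34 at 6 h, against 0.86 and 0.69 on slide 1 and 1.42 and 1.27 on slide 2 in unelicited leaves, a difference of −0.92 ± 0.27 (SE, adjusted p = 0.00996), and −0.80 under normexp (adjusted p = 0.0704). DOF zinc fingers fell in 12 of 16 and rose in 1, and within slide 2 the split was 8 to 3.

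The direction of the larger zinc finger families depended on the scaling. C2H2 factors gave 32 higher and 30 lower of 85, but 24 higher and 45 lower with the percentile over bright probes. RING-type C3HC4 proteins gave 63 higher and 53 lower of 162, but 36 higher and 85 lower with that percentile. HD-PHD, MYB-GARP and the other MYB-like names turned in the same way, with 3 higher and 16 lower for HD-PHD, 6 higher and 11 lower for MYB-GARP and 3 higher and 8 lower for the MYB-like names. As reported they gave 13 higher and 7 lower, 8 and 3, and 13 and 6.

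**Figure D4:**
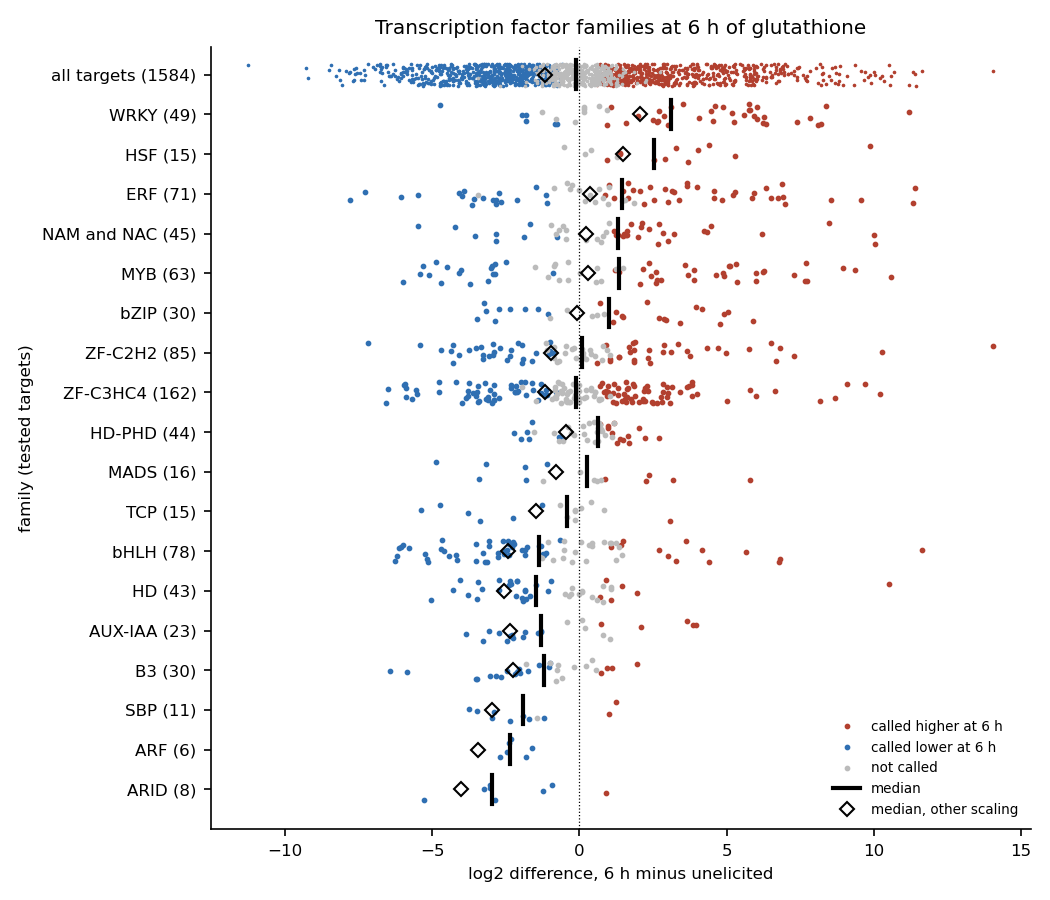
Each point is 1 tested target at its log2 difference, 6 h minus unelicited (x axis), by family (y axis, number of tested targets in brackets; points are spread vertically for visibility); red points were called higher at 6 h, blue lower and grey not called. Black bars mark the median and open diamonds the median with the percentile over bright probes, which shifts the median of all targets to −1.18; WRKY and HSF medians stay above 0 and those of bHLH, HD, B3, SBP and ARF below 0 under both.

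Leaving slide 1 out changed sizes more than directions. Of the 1584 targets, 1499 had the same sign in both comparisons, and 32 moved by more than 2 on the log2 scale. Both comparisons share the 6 h arrays and the unelicited arrays of slide 2, so this agreement is in part built in. Among targets called against all unelicited leaves, 46 of those higher and 30 of those lower were not called within slide 2. Another 124 targets were called within slide 2 alone, 53 higher and 71 lower. LjZF-C2C2-YABBY4 had −3.97, −5.64 and −4.06 at 6 h, against −0.22 and −0.30 on slide 1 and −4.42 on slide 2 in unelicited leaves, where 1 spot was left out as an outlier. Its groups overlapped through the array of slide 2, and its difference was −2.91 against all unelicited leaves, and −0.13 within slide 2 (adjusted p = 0.864). UGT73B_LjT09A12.20.nd likewise had 1 unelicited spot of slide 2 left out and groups that overlapped, with a difference of 2.18, and −0.01 within slide 2 (adjusted p = 0.988). These 2 genes were singled out after their values were seen, for the size of the loss.

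**Figure D5:**
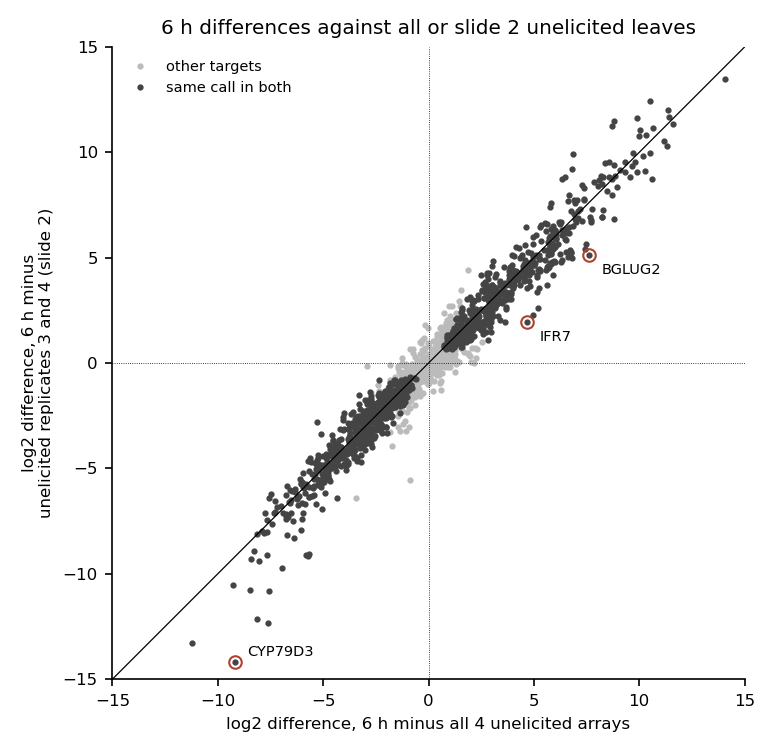
Each point is 1 of 1584 tested targets: log2 difference of 6 h against all 4 unelicited arrays (x axis) and against the unelicited replicates 3 and 4 of slide 2 (y axis), with the line of equality. Dark points had the same call in both, and the 3 circled genes are IFR7 (4.66 against all and 1.95 within slide 2), BGLUG2 (7.60 and 5.14) and CYP79D3, whose 6 h level was not well above background, so that its place is a fitted one.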

How the data were processed

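Total RNA of 10 leaf samples, labelled with Cy3, was hybridised to 1-colour Agilent arrays, 1 per sample. The authors extracted linear spot intensities with Agilent Feature Extraction (version 10.7.3.1 in the submitters' processing notes). Background was subtracted and spatial trends removed within each array, per the file headers. No scaling between arrays or statistical test is given in the sources used here, and the build behind the gene model names is not given either.

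From these intensities, log2 processed signals of the non-control probes were taken and each array's 75th percentile was subtracted. Spots marked by the scanner software as outliers were left out. No spot was saturated. Tested were the 3309 probes that all arrays of 1 or more groups showed well above background. limma 3.58.1 in R 4.3.3 (lmFit and eBayes, two-sided, Benjamini-Hochberg over all tested probes) was fitted to 10 arrays in 3 groups, and again to the 8 arrays of slide 2. The fit was tested on simulated data with known changes. Summaries used Python 3.11.15 with pandas 2.3.3 and numpy 2.4.6.

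Names ending in 1 gene model, or differing only by the ending _est, were joined, and the probe with the highest mean over all arrays stood for a target. Joined _est names correlated at 0.964 in their differences, against 0.969 for 2 probes of 1 name. Of 1303 names with 2 tested probes, 919 had the same call and 2 opposite calls. Families are name prefixes, and a target whose names match several families counts in each. UGT78D_chr6.CM0055.290.nc, for example, counts under both IFLGT and UGT78. The named genes are a part of those fixed by a rule: the 12 largest rises and 8 largest falls called in both comparisons, without overlap and at most 2 per family; then up to 2 rises and 2 falls per family, members of the phenylpropanoid, cyanogenic and beta-glucosidase lists, and those of lists of at most 12 targets. Each is printed from the probe with the largest change that met these conditions, which need not be the probe that stands for its target. Members, families and lists were chosen with earlier results of these data known. With 3 and 4 arrays a group, the number of arrays limits the precision. Quantile normalization, normexp background correction (offset 50), other filters, slide and replicate blocks, and leaving out each array were tried as alternatives. No probe sequences were used here.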

Additional observations from a re-analysis of the deposited data

Results flagged for a closer look

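Among the 106 probes examined, 5 differed between the leaves at 6 h and those at 3 h of the same treatment by limma's test of that difference. Over all 1584 targets 53 were higher and 31 lower at 6 h than at 3 h (5.3%), so 5 of 106 is no more than the share over all targets. LjMYB21 was higher at 6 h than at 3 h by 2.63 ± 0.49 (SE, adjusted p = 0.0167), LjHD19 by 2.41 ± 0.53 (SE, adjusted p = 0.029) and LjNAM12 by 2.22 ± 0.50 (SE, adjusted p = 0.0316), on the log2 scale. All 3 were also higher at 6 h than in unelicited leaves, so their levels at 6 h lay farther from the unelicited ones than those at 3 h did. UGT83A_LjT15N18.90.nd differed by −2.10 ± 0.47 (SE, adjusted p = 0.0314) and CYP51LT_1_ntc by −1.46 ± 0.34 (SE, adjusted p = 0.0383), both lower at 6 h than at 3 h and lower than in unelicited leaves.

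In 2 probes 1 of the 4 unelicited arrays stood far from the others. CYP706A_LjSGA_035363.1 had −4.28, −4.63 and −2.95 at 6 h, against 1.15, 1.13 and 1.25 in unelicited replicates 1 to 3 and 1.85 in replicate 4. LjZF-C2C2-YABBY2 had −1.41, −1.33 and −1.23 at 6 h, against 0.68, 0.66 and 0.66 in unelicited replicates 1, 2 and 4 and 0.24 in replicate 3. Both genes were called lower at 6 h without each array in turn. Chance marks about 1 in 20 groups of 4 like values in this way. The unelicited arrays lay on 2 slides that often differed, so that rate need not hold here. Whether 2 of 106 is an excess was not tested.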

How the results depend on the processing

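When each array was left out in turn, every called probe of the 106 examined kept its direction and its call. Those not called stayed so, except CYP707ALT_1_ntc, which was called (1.58) without unelicited replicate 2. Changes of sign in probes that were not called were not counted. Called probes were mostly chosen for calls in both comparisons without overlap, so their stability was in large part built in. It says little about other probes. CYP707A_LjT10I01.150.nc, LjZF-C2C2-YABBY4 and UGT73B_LjT09A12.20.nd, which lost their call within slide 2, are not among the 106. Leave-one-out fits called 1129 to 1253 probes higher and 1187 to 1308 lower, or 534 to 603 targets higher and 584 to 648 lower. Within slide 2 they called 1163 to 1362 probes higher and 1252 to 1367 lower; the fit on all 8 arrays called 1307 and 1370. Quantile normalization turned NIT05_LjNIT4A to −0.89 and CYP74A_chr5.CM0089.580.nd to −0.33. Normexp background correction lowered the count called lower to 798 probes (405 targets), against 1271 (622), and testing only probes well above background on every array lowered it to 581 (296), where fewer probes were tested; the cause under normexp was not tested. The percentile over bright probes gave 835 probes higher and 1680 lower, and 939 and 1789 within slide 2. On slide 2, scaling on spike-in controls, an alternative chosen after seeing the data, gave 967 and 1624. With slide as a block 602 targets were higher and 675 lower. Same-numbered arrays of different groups did not deviate together (correlations −0.04 to 0.06), so the numbers were not taken as pairs; a fit with the replicate number as a block called 1200 probes higher and 1287 lower, or 575 targets higher and 626 lower. Without the filter on dim probes 753 targets were higher and 640 lower, and with _est names kept apart, also chosen after seeing the data, 726 were higher and 747 lower. The mean of a target's probes moved the median difference to −0.28. Low signal left 207 targets at 6 h and 51 in unelicited leaves with no array well above background, most of them with a bound alone.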

Other observations

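Further name groups were set among the glycosyltransferases. Most IFLGT and FOLGT targets were already counted above as UGTs. All glycosyltransferase lists together held 150 tested targets, and the UGT names alone 147. Names beginning with IFLGT gave 3 higher and 7 lower of 14 tested targets (median −1.44), and 1 higher and 9 lower with the percentile over bright probes. Names beginning with FOLGT gave 5 higher and 2 lower of 10 (median 1.28), but 4 higher and 4 lower with that percentile. The sugar-transferring UGT81 family gave 5 lower and 1 higher of 7. Among regulators, the MYB-SHAQKY names, single-repeat MYB factors some of which run the circadian clock in Arabidopsis, gave 10 lower and 2 higher of 14 (median −1.99), and the labels give no time of day for either group. AP2 factors gave 5 lower and 3 higher of 10. Of 98 MADS names on the array 18 were bright enough to test, and none of the 4 LEAFY names was.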
